A study of Mus musculus with 1 sample.

Results

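The 9 genes described here encode metal-binding metallothioneins (*Mt1*, *Mt2*, *Mt3*) and enzymes that remove reactive oxygen species. The enzymes are 3 glutathione peroxidases (*Gpx1*, *Gpx3*, *Gpx4*), 2 superoxide dismutases (*Sod1*, *Sod2*) and catalase (*Cat*). They were chosen by symbol from the 32285 genes of the matrix, with their levels across adrenal cell classes already known, and those UMI levels are what they were selected on, so that they are given as a description and not as a test. Each symbol matched 1 gene, and all 9 were detected.

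The cells came from the adrenal medulla of wild-type mice at postnatal day (P) 15, with surplus cortex trimmed away by hand. The 10 adrenals of 5 mice of mixed sex were pooled, and 10000 viable cells entered 1 droplet-based single-cell library. In such a library each unique molecular identifier (UMI) counts 1 transcript read near its 3′ end. With 1 library there are no replicates, no test between samples was possible, and the exact 95% intervals given with values cover counting error only.

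Of 11214 barcodes, 10139 passed quality control, with a median of 3567 UMIs and 1611 genes per cell. Unsupervised clustering and marker lists placed 9014 cells in 14 classes. Their names were rebuilt from markers, so each stands for cells like that type ("adrenaline cells" for adrenaline chromaffin-like cells, and so on). The chromaffin classes comprised 1661 adrenaline, 388 noradrenaline, 424 transitioning and 141 cycling cells. There were 172 sustentacular cells, and the cortex gave 125 outer, 705 fasciculata, 1786 inner and 358 cycling cells. A further 455 cortex cells carried *Cyp11b1* in 93.0% of cells but had outer markers (*Wnt4*, *Dab2*) among their leading genes, and are called unzoned. Against other cortex cells, the stress-response gene *Atf3* was also among their leading genes. The remaining classes were 1642 endothelial, 492 cycling endothelial, 576 immune and 89 fibroblast cells. The 1125 cells outside the classes lay in clusters with markers of more than 1 cell type or of none.

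The class names were checked against their markers. *Chga* was found in 100% of adrenaline and 99.5% of noradrenaline cells, and *Pnmt*, which encodes the enzyme that makes adrenaline, in 96.3% and 16.2%, the gene that divided these 2 types. *Star* was found in 96.0% to 100% of cells of the non-cycling cortex classes. The fibroblast class also had the mural genes *Tagln* (58.4% of cells) and *Pdgfrb* (56.2%) and the endothelial gene *Emcn* (61.8%). Doublet calls made up 14.9% of cycling chromaffin cells and at most 4.80% of any other class. Median depth ran from 1116.5 UMIs in sustentacular to 8260.5 UMIs in cycling cortex cells, so levels are given as counts per 1000000 UMIs of the class (CPM). Levels are compared between classes for 1 gene and not between genes.

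Metallothioneins are small, cysteine-rich proteins that bind zinc and copper, and *Mt1* and *Mt2* are induced by metals through metal response elements and also by glucocorticoids. Superoxide dismutases convert superoxide to hydrogen peroxide, which catalase and glutathione peroxidases break down, with GPX4 acting on lipid peroxides in membranes. In the adrenal, steroid-producing cortex cells carry out cytochrome P450 reactions that can leak oxidants, and chromaffin cells of the medulla oxidise catecholamines.

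The metallothionein genes lie side by side on chromosome 8 in the build that the submitters name (GRCm38, also called mm10), all on the plus strand. *Mt4* starts the row, *Mt3* follows after 13575 bp, *Mt2* after another 18517 bp and *Mt1* after another 5513 bp. The 250 bases before the RefSeq starts of *Mt1*, *Mt2* and *Mt3* are shown, 5′ to 3′, and their part in the levels was not tested. They come from RefSeq on GRCm38.p6, plus strand, at chr8:94178839-94179088 for *Mt1*, chr8:94172368-94172617 for *Mt2* and chr8:94152357-94152606 for *Mt3*. Capitals mark the core of the metal response element, TGCACNC or TGCGCNC, found on either strand.

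Mt1: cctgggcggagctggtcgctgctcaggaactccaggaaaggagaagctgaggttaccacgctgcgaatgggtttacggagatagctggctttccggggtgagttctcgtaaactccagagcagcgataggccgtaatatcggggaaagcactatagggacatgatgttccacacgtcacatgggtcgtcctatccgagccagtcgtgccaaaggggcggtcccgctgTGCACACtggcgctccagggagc

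Mt2: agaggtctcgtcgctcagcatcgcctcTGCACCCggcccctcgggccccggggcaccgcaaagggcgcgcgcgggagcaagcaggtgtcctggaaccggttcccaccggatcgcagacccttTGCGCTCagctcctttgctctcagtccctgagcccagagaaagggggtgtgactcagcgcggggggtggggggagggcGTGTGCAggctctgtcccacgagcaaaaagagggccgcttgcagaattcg

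Mt3: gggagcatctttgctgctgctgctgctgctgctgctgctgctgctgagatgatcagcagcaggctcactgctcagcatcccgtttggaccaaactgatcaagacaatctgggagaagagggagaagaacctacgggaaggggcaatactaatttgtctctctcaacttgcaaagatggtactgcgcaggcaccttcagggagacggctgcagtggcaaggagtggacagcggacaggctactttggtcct

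The *Mt2* window held 3 cores, at bases -223, -128 and -50 from the start, and 1 core of the antioxidant response element (TGACNNNGC) at base -79. The *Mt1* window held 1 metal response core, at base -23, and the *Mt3* window held none. Of 32851 such windows of all genes, 21.4% held at least 1 metal response core and 1.26% at least 3. None of the enzyme windows held a metal response core, and the *Sod1* window held 1 antioxidant response core, a motif present in 10.2% of windows. These matches are letters and not sites: no binding was measured.

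Annotated starts differ, which moves cores across the boundary between promoter and transcript. RefSeq places the *Mt1* start 152 bases upstream of the last start in the GENCODE annotation. The 4 cores 150, 132, 68 and 54 bases before that last start therefore fall inside the first exon of the *Mt1* transcript that starts furthest upstream. The *Mt2* and *Mt3* transcripts that start furthest upstream also carried 3 cores each in the first exon. Among first stretches of the same length in protein-coding transcripts, 0.195% held as many cores as *Mt1*, 0.655% as many as *Mt2* and 0.714% as many as *Mt3*. Which start the adrenal cells used cannot be read from 3′ UMIs.

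**Figure D1:**
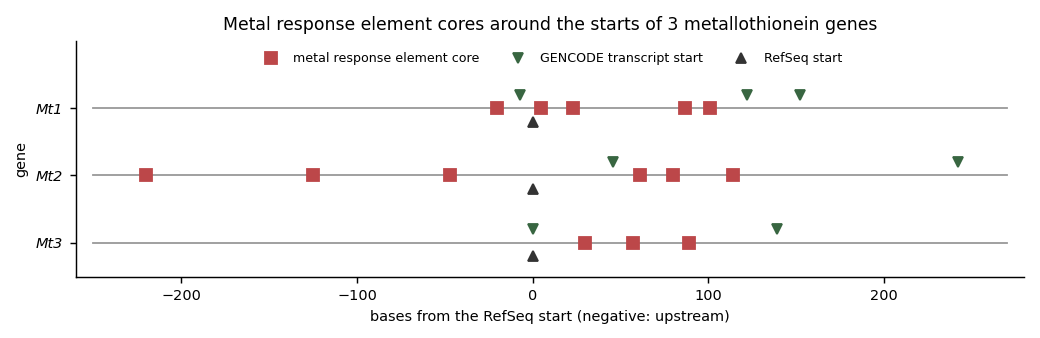
Metal response element cores around the RefSeq starts of the 3 metallothionein genes, with distance from the start in bases on the horizontal axis. Squares are core centres (TGCACNC or TGCGCNC, either strand), downward triangles GENCODE transcript starts and upward triangles RefSeq starts. *Mt2* has 3 cores upstream of its RefSeq start, *Mt1* has 1 and *Mt3* has none, and all 3 genes have cores between their earliest and latest annotated starts.

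*Mt1* was highest in adrenaline chromaffin cells, at 1886 CPM (95% interval 1855 to 1918; 13805 UMIs). Cycling chromaffin cells followed at 1747 CPM (1664 to 1833), with an interval apart from that of the adrenaline cells. That order did not hold at 1000 UMIs per cell, where cycling chromaffin cells had a mean of 2.14 *Mt1* UMIs and adrenaline cells 2.08. Next came immune cells, with 711 CPM, and transitioning cells, with 673 CPM, whose intervals overlapped. Cycling cortex (489 CPM) and fibroblast cells (481 CPM) also overlapped. Noradrenaline chromaffin cells, at 344 CPM (313 to 377), were level with inner cortex cells, at 342 CPM (331 to 353). The lowest levels, 122 CPM in outer cortex and 146 CPM in endothelial cells, had overlapping intervals.

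At least 1 *Mt1* UMI was found in 93.4% of adrenaline cells (median depth 3168 UMIs), 70.8% of transitioning cells (5124.5 UMIs) and 37.1% of noradrenaline cells (2637 UMIs). No class here is known to lack *Mt1*, and the lowest share was 20.9%, in sustentacular cells. With each cell thinned to 1000 UMIs, the shares were 74.7% of adrenaline, 41.1% of transitioning, 22.3% of noradrenaline and 8.80% of outer cortex cells. Adrenaline, transitioning and noradrenaline cells thus kept their order at equal depth, whereas cycling chromaffin cells, at 75.5%, were level with adrenaline cells.

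*Mt2* followed a similar order at lower counts. It reached 463 CPM in cycling chromaffin and 433 CPM in adrenaline cells, with overlapping intervals, and then fell to 133 CPM in transitioning, 91.4 CPM in fibroblast and 56.0 CPM in noradrenaline cells. The cortex classes had 4.95 CPM (outer, 3 UMIs) to 34.2 CPM (inner), and endothelial cells had 18.5 CPM. Across the 14 classes the log2 levels of *Mt1* and *Mt2* had a Pearson r of 0.91, over points that share 1 library and, within a class, 1 total.

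The balance between *Mt1* and *Mt2* was not the same in every class. There were 4.36 *Mt1* UMIs per *Mt2* UMI in adrenaline cells (4.19 to 4.53), 3.78 in cycling chromaffin and 6.14 in noradrenaline cells (4.78 to 7.97). In inner cortex the ratio was 10.0 (8.99 to 11.2). It was 19.3 in immune cells (14.0 to 27.2) and 19.0 in cycling cortex cells (15.3 to 23.8). Immune and cycling cortex cells thus stood above both chromaffin types and inner cortex by intervals that did not overlap.

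*Mt3*, named for a neuronal growth inhibitory activity and best known from brain, was confined in these classes almost wholly to chromaffin cells. It had 217 CPM in adrenaline (206 to 228), 180 CPM in noradrenaline (158 to 205), 168 CPM in transitioning and 147 CPM in cycling chromaffin cells. The last 3 overlapped in turn. Elsewhere it did not exceed 14.1 CPM, which is 3 UMIs in sustentacular cells, and none was found in 125 outer cortex cells, where 3 counts would be 4.95 CPM. A UMI of *Mt3* was seen in 47.8% of the 2049 adrenaline and noradrenaline cells (median depth 3007 UMIs), against 0.554% of cortex cells (4943 UMIs). No UMI of *Mt4*, the fourth gene of the row and known from stratified epithelia, was found in any cell that passed quality control.

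RNA from broken cells can enter any droplet, so the level that a class would show from foreign RNA was computed. *Chga* and *Pnmt* UMIs outside the chromaffin classes, and *Star* and *Cyp11a1* UMIs outside the cortex classes, were all taken as foreign. For *Mt3* this level was 10.3 CPM in fibroblast cells, beside the 10.5 CPM measured, 3.30 CPM in immune cells, beside 2.77 CPM, and 2.07 CPM in endothelial cells, beside 2.34 CPM. For *Mt1* it was 29.0 CPM of 711 CPM in immune cells, 20.5 CPM of 146 CPM in endothelial cells and 108 CPM of 481 CPM in fibroblast cells. In sustentacular cells it was 3.13 CPM for *Mt3*, inside the interval of the 14.1 CPM measured (2.91 to 41.2). *Mt3* in these classes was thus within counting error of the foreign level, and *Mt1* was above it. RNA passing between chromaffin classes or between cortex classes was not estimated. Noradrenaline cells had *Pnmt* at 186 CPM beside 11629 CPM in adrenaline cells, and the part of adrenaline RNA in their *Mt1* was not tested.

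**Figure D2:**
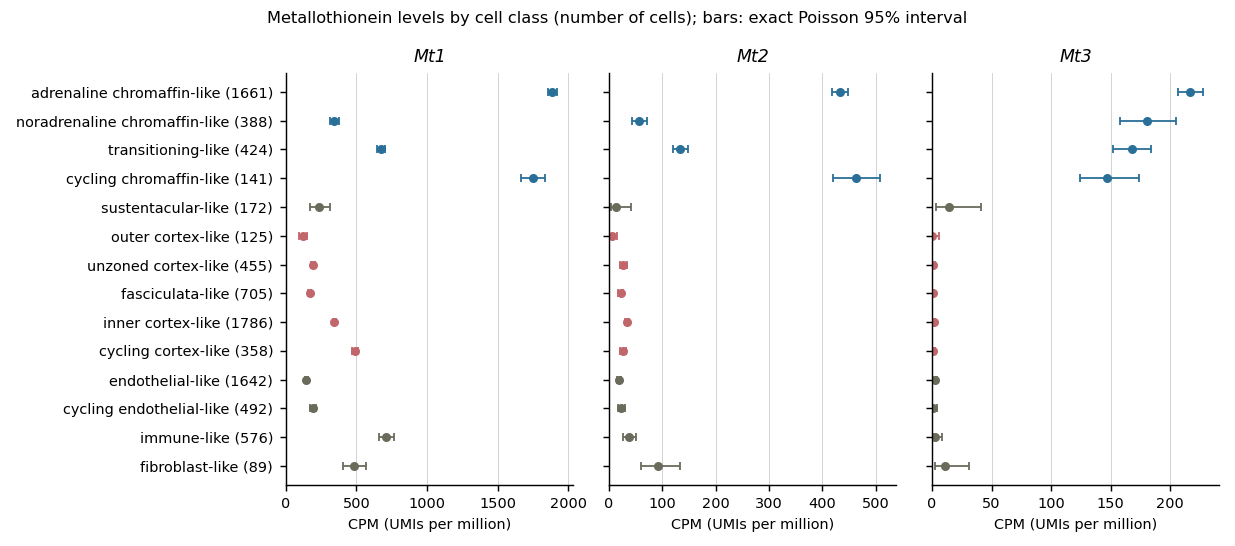
Levels of *Mt1*, *Mt2* and *Mt3* in CPM (horizontal axes) in the 14 cell classes (vertical axis, with the number of cells), as points with exact Poisson 95% intervals. *Mt1* and *Mt2* stand high in adrenaline and cycling chromaffin cells (1886 and 1747 CPM for *Mt1*) and low in noradrenaline cells (344 CPM), while *Mt3* lies between 147 and 217 CPM in all 4 chromaffin classes.

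Adrenaline and noradrenaline chromaffin cells were compared directly. *Mt1* was 5.49-fold higher in adrenaline cells (95% interval 4.99 to 6.04) and *Mt2* 7.73-fold higher (6.13 to 9.88), whereas *Mt3* was 1.20-fold higher (1.05 to 1.38). With 10 CPM added to both levels to damp low counts, 2 of the 8 members with at least 10 CPM in either class were 2-fold or more higher in adrenaline cells and 0 were lower. Over all 8714 genes at that level, 2.47% were higher and 3.25% lower by the same rule. These differences belong to the choice of the genes, and nothing is read from the count.

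The enzymes differed little between the 2 chromaffin types. *Gpx4* was 1.38-fold higher in noradrenaline cells (1.27 to 1.51), *Gpx1* 1.37-fold (1.13 to 1.65), *Sod1* 1.24-fold (1.08 to 1.41) and *Sod2* 1.20-fold (1.01 to 1.42). *Gpx3* rested on 5 UMIs in noradrenaline cells and was 3.84-fold higher in adrenaline cells by CPM (1.60 to 12.1), but under 2-fold once 10 CPM were added. It passed 2-fold with 1 CPM added or with cells thinned to 1000 UMIs. *Cat* was below 10 CPM in both, at 4.51 and 4.61 CPM.

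Among single adrenaline cells *Mt1* varied more than sampling of UMIs would give. At 1000 UMIs per cell the counts had a variance 2.49 times their mean, a median of 2, a 90th percentile of 5 and a maximum of 24. In noradrenaline cells the mean was 0.424 UMIs and the variance 3.23 times the mean, with 77.7% of cells at 0 and a maximum of 14. For *Mt3* the same quotient was 1.11 in adrenaline and 1.01 in noradrenaline cells, where counting alone gives 1. Its means were only 0.205 and 0.179 UMIs, beside 2.08 for *Mt1* in adrenaline cells. At a given relative spread the quotient rises with the mean, so it cannot show which gene varied more between cells.

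**Figure D3:**
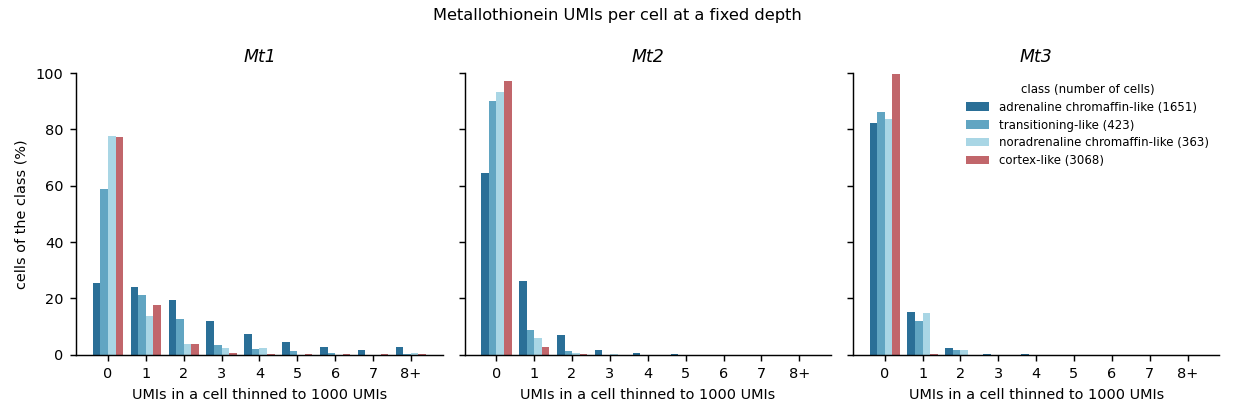
Share of cells (vertical axis, %) by the number of *Mt1*, *Mt2* or *Mt3* UMIs in a cell thinned to 1000 UMIs (horizontal axis), for adrenaline, transitioning and noradrenaline chromaffin and cortex cells. For *Mt1*, 25.3% of adrenaline cells, 58.9% of transitioning, 77.7% of noradrenaline and 77.4% of cortex cells had none, whereas the bars of *Mt3* nearly coincide in the 3 chromaffin classes.

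Cells with more *Mt1* tended to have more *Pnmt*. Over 423 thinned transitioning cells, which carry chromaffin and sustentacular markers together, the Pearson r of the log counts was 0.38. That class was 1 cluster, *Pnmt* was found in 46.0% of its cells, and its r may hold a difference between adrenaline and noradrenaline cells. Over 1651 adrenaline cells it was 0.17. Over 363 noradrenaline cells it was 0.19, and over 503 immune cells, whose few *Pnmt* UMIs are those of another cell type, it was 0.24. Over the 2014 adrenaline and noradrenaline cells as 1 group it was 0.40, a value that holds the difference between the types. With *Chga*, a gene of all chromaffin cells, the r of *Mt1* was 0.24 in transitioning, 0.09 in noradrenaline and -0.05 in adrenaline cells. In 139 cycling chromaffin cells it was 0.36 with *Chga* and 0.38 with *Pnmt*. The r of *Mt1* with *Mt2* in adrenaline cells was 0.18, and with *Mt3* it was 0.00 when rounded. The cells share 1 library, and sparse counts lower such values.

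The adrenaline class held 4 clusters, which did not have *Mt1* in equal measure. The largest, of 596 cells with a median of 2979.5 UMIs, had 1857 CPM (1797 to 1919). The deepest, of 506 cells with a median of 7196.5 UMIs, had the lowest level, 1594 CPM (1555 to 1633), and the shallowest, of 460 cells with a median of 1933.5 UMIs, had 2771 CPM (2668 to 2878). The 99 cells led by *Atf3* and other stress-response genes had 2927 CPM (2755 to 3107), with *Mt2* at 503 CPM and *Mt3* at 147 CPM. The part of depth and of stress genes in *Mt1* was not tested. Without the stress-led cluster, a choice made after seeing the data, the adrenaline level of *Mt1* was 1831 CPM and the log2 ratio of (CPM + 10) to noradrenaline cells was 2.38, beside 2.42 with it.

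Cells were also divided by sex with *Xist* and Y-linked genes, where a cell had UMIs of only 1 kind. In 279 female adrenaline cells *Mt1* had 1438 CPM (1370 to 1509), and in 673 male cells 1872 CPM (1829 to 1915). The female level was 0.768 times the male level (0.728 to 0.810). *Mt2* had a ratio of 0.813 (0.728 to 0.905) and *Mt3* of 0.926 (0.799 to 1.07). In cortex cells the female to male ratio was 0.818 for *Sod1* (0.781 to 0.857) and 0.753 for *Cat* (0.668 to 0.847). These pooled values mix zones that the sexes held in different shares: inner cells were 292 of 678 female and 910 of 1478 male cortex cells. Within fasciculata cells the ratio was 0.807 for *Sod1* (0.727 to 0.895) and 0.746 for *Cat* (0.568 to 0.969). Within inner cortex it was 0.909 for *Sod1* (0.857 to 0.964) and 0.876 for *Cat* (0.754 to 1.01), and within unzoned cortex 1.10 for *Sod1* (0.957 to 1.26). The number of mice of each sex in the pool is not known here, and differences between mice and between sexes cannot be told apart.

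*Gpx1*, which encodes the cytosolic glutathione peroxidase, lies on chromosome 9 (108338903 to 108340343, plus strand). It was highest in immune cells, at 1294 CPM (1227 to 1363), and 82.8% of them had a UMI. Inner cortex followed at 561 CPM, and the outer, fasciculata, cycling and unzoned cortex classes lay between 404 and 435 CPM with overlapping intervals. Endothelial cells had 243 CPM. Sustentacular cells (132 CPM) and the transitioning, cycling and noradrenaline chromaffin cells (126, 117 and 106 CPM) overlapped, and adrenaline cells were lowest at 77.5 CPM (71.2 to 84.1), apart from all other classes. In cycling chromaffin cells, where 14.9% of cells were called doublets, cortex RNA would give 43.4 of the 117 CPM, and its part in their place above adrenaline cells was not tested. The 4 immune clusters had 1187 to 1783 CPM.

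*Gpx3*, the secreted plasma glutathione peroxidase (chromosome 11, 54902453 to 54910377, plus strand), was nearly restricted to fibroblast cells, at 348 CPM (283 to 423), and immune cells, at 181 CPM (156 to 208). Adrenaline cells had 14.8 CPM (12.1 to 17.8) and transitioning cells 10.8 CPM, and every other class was below 10 CPM. A UMI was seen in 56.2% of fibroblast cells (median depth 2052 UMIs) and 24.8% of immune cells (1624.5 UMIs), against 0.426% of fasciculata cells (5569 UMIs). Among immune clusters the level was 310 CPM in the 296 cells led by *Cd163* and *Ms4a7*, and 72.9 CPM in the 186 cells led by *H2-Eb1* and *Cd52*. No UMI was found in 172 sustentacular cells, where 3 counts would be 14.1 CPM, or in 455 unzoned cortex cells, where they would be 1.09 CPM. RNA of chromaffin and cortex cells, which hold little *Gpx3*, would give 0.891 CPM in fibroblast and 0.233 CPM in immune cells. Foreign RNA from immune or fibroblast cells was not estimated.

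*Gpx4*, whose product reduces phospholipid hydroperoxides (chromosome 10, 80047166 to 80056439, plus strand), was found in every class. It was highest in inner cortex at 1279 CPM (1258 to 1301), followed by cycling cortex (1171 CPM) and fasciculata cells (1161 CPM), which overlapped. Unzoned cortex (852 CPM) overlapped with sustentacular cells (842 CPM, 723 to 975). Outer cortex, at 561 CPM (503 to 624), was level with cycling chromaffin and fibroblast cells. Adrenaline cells, at 359 CPM (346 to 373), and immune cells, at 344 CPM (310 to 381), closed the order and overlapped. Of the 50-base stretches of the *Gpx4* transcript, 61.7% also occur in transcripts of 2 other genes, one of them the pseudogene *Gpx4-ps2*, so that reads from these copies and from *Gpx4* cannot be told apart with certainty.

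*Sod1*, the cytosolic copper and zinc enzyme (chromosome 16, 90220754 to 90226329, plus strand), had the same leading classes. Inner cortex had 747 CPM (731 to 764), cycling cortex 684 CPM and fasciculata 519 CPM, each apart from the next. Unzoned (353 CPM) and outer cortex (343 CPM) overlapped, the chromaffin classes lay between 176 and 245 CPM, and immune cells were lowest at 96.9 CPM (79.2 to 117). Within the inner cortex class 1 cluster of 640 cells reached 992 CPM, and the other 2 had 463 and 471 CPM. That cluster was also the deepest, with a median of 7514.5 UMIs against 3252 and 5150 UMIs, and the part of depth was not tested. The *Sod1* transcript shares 23.1% of its 50-base stretches with *Gm8566*, which leaves its reads uncertain to that extent.

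*Sod2*, the mitochondrial manganese enzyme (chromosome 17, 13006846 to 13040063, plus strand), had 285 CPM in inner cortex (275 to 295), 211 CPM in cycling cortex and 206 CPM in fasciculata cells. The 4 chromaffin classes lay between 110 and 132 CPM and overlapped in turn, as did outer cortex at 112 CPM. Immune (61.8 CPM), endothelial (59.4 CPM) and cycling endothelial cells (45.3 CPM) were lowest.

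*Cat*, the peroxisomal enzyme that splits hydrogen peroxide (chromosome 2, 103453849 to 103485160, minus strand), was highest in inner cortex at 127 CPM (120 to 134), then cycling cortex (104 CPM), fasciculata (87.5 CPM) and immune cells (65.5 CPM). Adrenaline and noradrenaline cells were lowest, at 4.51 CPM (3.10 to 6.33) and 4.61 CPM (1.69 to 10.0). A UMI was seen in 40.7% of cortex cells (median depth 4943 UMIs) and 1.90% of chromaffin cells of both types (3007 UMIs), and in 9.29% and 0.447% at 1000 UMIs per cell. Cortex RNA in chromaffin droplets would account for 0.468 of the 4.51 CPM in adrenaline cells.

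**Figure D4:**
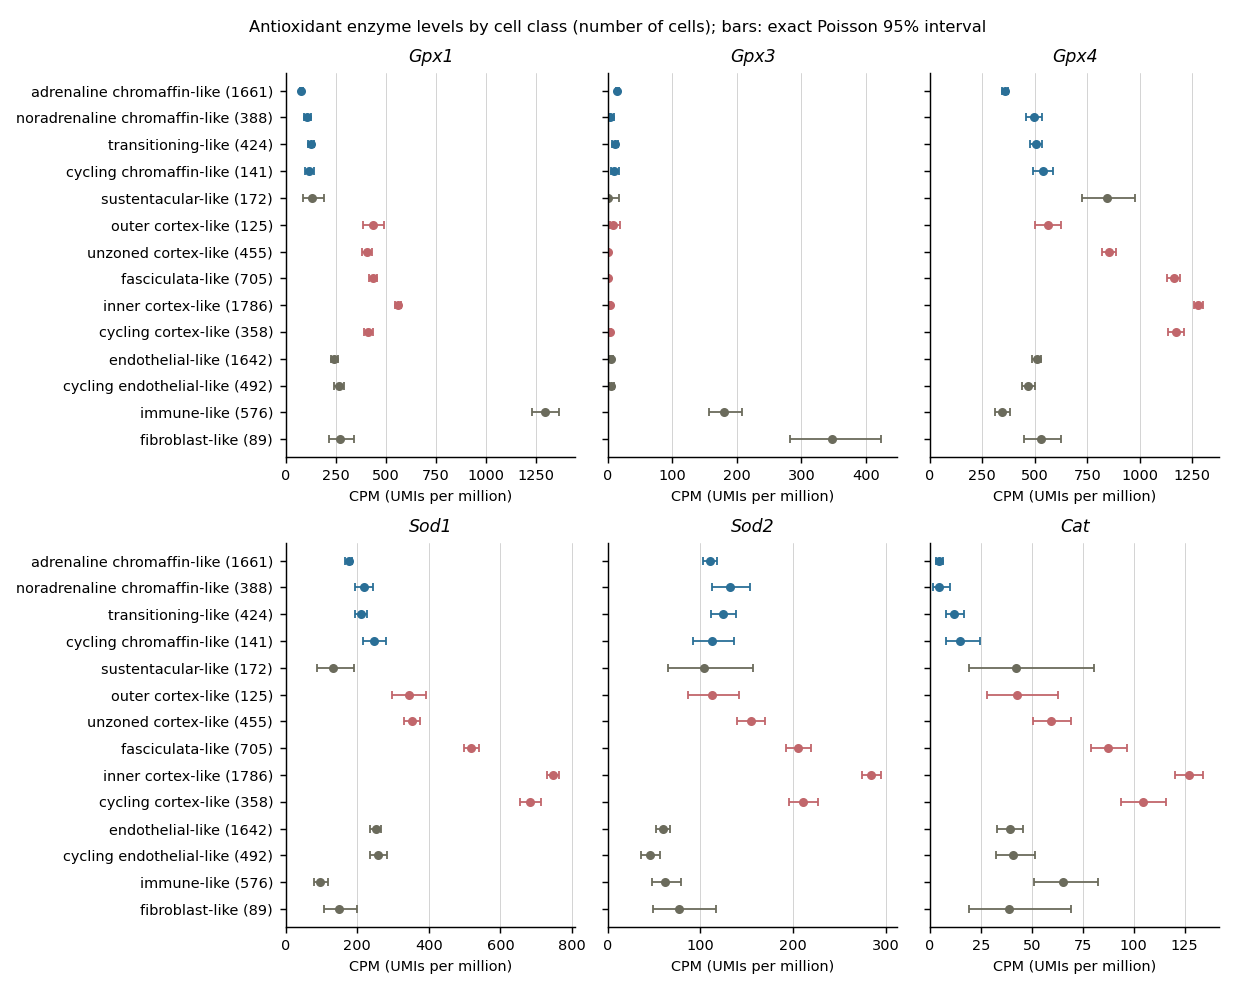
Levels of the 6 enzyme genes in CPM (horizontal axes) in the 14 cell classes (vertical axis, with the number of cells), as points with exact Poisson 95% intervals. *Gpx4*, *Sod1*, *Sod2* and *Cat* peak in inner cortex cells (1279, 747, 285 and 127 CPM), *Gpx1* in immune cells (1294 CPM) and *Gpx3* in fibroblast cells (348 CPM).

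The 3071 non-cycling cortex cells were set against the 2049 adrenaline and noradrenaline cells. Every enzyme but *Gpx3* was higher in cortex, and the metallothioneins were higher in chromaffin cells. *Cat* was 23.1-fold higher in cortex (16.9 to 32.7), *Gpx1* 6.15-fold (5.70 to 6.65), *Sod1* 3.40-fold (3.22 to 3.58), *Gpx4* 3.07-fold (2.95 to 3.18) and *Sod2* 2.12-fold (1.98 to 2.28). In the other direction, *Mt2* was 12.9-fold higher in chromaffin cells (11.8 to 14.1) and *Mt1* 6.11-fold (5.91 to 6.31). The ratio for *Mt3* was 208 (133 to 346), but its 1.02 CPM in cortex rested on 19 UMIs and was near the foreign level (1.27 of 1.39 CPM in inner cortex, 0.574 beside 0.363 CPM in unzoned cortex), and the part of foreign RNA in that ratio was not tested. Of 9 members, 5 were thus higher in cortex and 3 lower by 2-fold or more after adding 10 CPM, where 13.2% of 9297 genes were higher and 16.5% lower. *Gpx3*, at 2.46 CPM in cortex and 13.1 CPM in chromaffin cells, was 5.33-fold higher in chromaffin cells by CPM (3.75 to 7.68). It was within 2-fold once 10 CPM were added, and passed 2-fold with 1 CPM added. *Sod2* lay closest to the limit, and was below 2-fold with the mean taken over cells or with cells thinned to 1000 UMIs. The unzoned cells and the stress-led adrenaline cluster, both led by *Atf3*, were also left out, a choice made after seeing the data. The log2 ratio of (CPM + 10) was then -2.45 for *Mt1*, beside -2.57, and 1.82 for *Sod1*, beside 1.71. Both moved by more than counting error, and every call of a member was kept.

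The other classes were compared with the same chromaffin cells, so these comparisons share their second group. The 3 metallothioneins were lower by 2-fold or more in each. In sustentacular cells *Mt1* was 7.03-fold lower (5.33 to 9.48), *Gpx4* 2.22-fold higher (1.90 to 2.58) and *Cat* 9.36-fold higher (3.99 to 19.6, from 9 UMIs). There, 2 members were higher and 4 lower, with 14.9% and 16.9% of all genes. *Gpx3* was counted as lower although no fold can be given, since 3 counts in sustentacular cells exceed the chromaffin level. *Gpx4* was below 2-fold with cells thinned to 1000 UMIs.

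In endothelial cells *Gpx1* was 2.97-fold higher (2.69 to 3.28), *Cat* 8.64-fold higher (6.04 to 12.6) and *Mt1* 11.3-fold lower (10.4 to 12.4). That made 2 members higher and 3 lower, where 16.0% of all genes were higher and 16.3% lower. Immune cells had *Gpx1* 15.8-fold (14.4 to 17.3), *Cat* 14.5-fold (9.67 to 22.0) and *Gpx3* 13.8-fold higher (10.9 to 17.6), and *Mt1* 2.32-fold lower (2.16 to 2.50). Their 3 higher and 3 lower members stood beside 16.3% and 22.7% of all genes. Fibroblast cells had *Gpx3* 26.5-fold (20.1 to 35.1), *Cat* 8.54-fold (3.95 to 17.0) and *Gpx1* 3.31-fold higher (2.58 to 4.19), with 3 members higher and 3 lower beside 20% and 12.6% of all genes. In fibroblast cells RNA of chromaffin and cortex cells would give 11.2 of the 38.6 CPM of *Cat* and 56.8 of the 271 CPM of *Gpx1*. Foreign RNA from immune cells was not estimated, and the part of foreign RNA in these ratios was not tested.

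**Figure D5:**
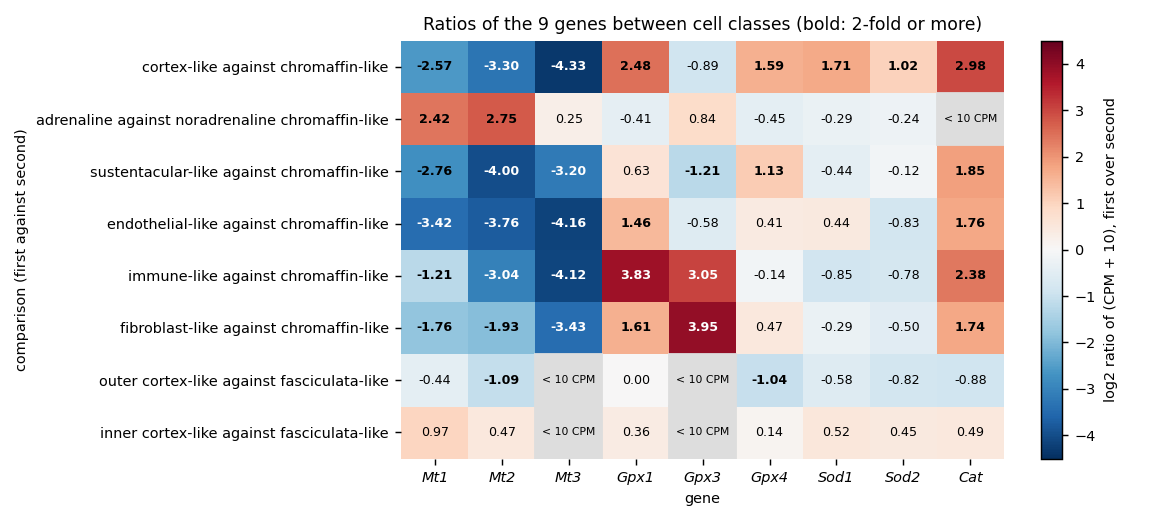
The log2 ratio of (CPM + 10) of the 9 genes (horizontal axis) in 8 comparisons of cell classes (vertical axis), coloured from blue (lower in the first class) to red (higher). Bold marks 2-fold or more, and grey squares have under 10 CPM in both classes. The 3 metallothioneins are below -1 in all 5 comparisons with chromaffin cells, and *Cat* is above 1 in the same 5.

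Within the cortex, 7 members had at least 10 CPM in a zone, and *Mt3* and *Gpx3* are left aside as below it. Inner cortex cells against fasciculata cells had *Mt1* at 2.02-fold (1.87 to 2.19), *Cat* at 1.45-fold (1.30 to 1.63), *Sod1* at 1.44-fold (1.38 to 1.51) and *Sod2* at 1.39-fold (1.29 to 1.49). With 10 CPM added none of the 7 members tested was 2-fold higher or lower, where 3.04% and 3.47% of all genes were. *Mt1* stood at the limit, at 0.97 on the log2 scale of (CPM + 10), and passed it at resolution 0.8, with the mean over cells or with 1 CPM added. *Sod1*, at 0.52 on that scale, reached 1.05 with the stricter cell filter.

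Outer cortex cells against fasciculata cells had *Gpx4* 2.07-fold lower (1.86 to 2.32) and *Mt2* 4.41-fold lower (1.47 to 21.7, from 3 UMIs), with *Gpx1* unmoved at 1.00-fold (0.877 to 1.14). These 2 members were lower and 0 higher, beside 5.22% and 7.49% of all genes. In the same comparison 8 of 10 immediate-early and heat shock genes were higher in outer cortex, and *Fos* was at 1160 CPM against 137 CPM. The part of such stress genes was not tested. *Cat*, 2.04-fold lower by CPM (1.37 to 3.16), was within 2-fold once 10 CPM were added, with a log2 ratio of -0.88. It passed 2-fold with doublets removed, with 1 CPM added or with cells thinned to 1000 UMIs. In thinned cells the log2 ratio was -2.01, but it rested on a mean of only 0.016 *Cat* UMIs over 125 outer cortex cells. When the 455 unzoned cells, with *Fos* at 1768 CPM, were counted as fasciculata, a choice made after seeing the data, *Gpx4* was no longer lower by 2-fold. The same held at resolution 0.2 and with the stricter cell filter, and *Mt2* dropped out when list genes were left out of the clustering or doublets were removed.

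The members were then placed among 102 genes of 12 lists. Most lists concern redox and metal handling, and the others hold glucocorticoid-responsive genes and immediate-early and heat shock genes. In cortex against chromaffin cells 84 of these had at least 10 CPM, and 27 were higher and 16 lower in cortex by 2-fold or more. The counts given below for single lists in this comparison stand beside the same 13.2% of all genes higher and 16.5% lower, and in lists of this size a share near these is not a result about the list. The median log2 ratio of the tested list genes was 0.36, beside -0.03 over all genes tested. The lists hold the 9 members, which were chosen with these levels known. Nothing about the members is read from these counts and medians. Between adrenaline and noradrenaline cells, 73 were tested, 4 were higher (*Mt1*, *Mt2*, *Slc31a1*, *Egr1*) and 2 lower (*Selenop*, *Atf3*), with a median of -0.03 beside -0.02 over all genes. Over all genes tested in that comparison 2.47% were higher and 3.25% lower. *Mt1* and *Mt2* were chosen with these levels known, and nothing is read from their place among the higher genes.

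Metal handling was represented by 14 genes. *Slc31a1*, the copper importer of the cell surface, was highest in adrenaline cells at 251 CPM (240 to 263), with 120 CPM in transitioning, 66.0 CPM in noradrenaline and 18.8 to 42.5 CPM in the non-chromaffin classes. It shared this order of the chromaffin types with *Mt1*. *Slc40a1*, the iron exporter ferroportin, was confined almost wholly to immune cells at 198 CPM (173 to 227), with at most 7.03 CPM elsewhere. Of the 10 genes of this list tested in cortex against chromaffin cells, 2 were higher and 1 lower.

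The wider glutathione peroxidase family showed a further split. *Gpx7* and *Gpx8*, which act in the endoplasmic reticulum, were highest in sustentacular cells, at 84.7 CPM (50.2 to 134) and 160 CPM (111 to 223). *Gpx8* had 151 CPM in fibroblast and 130 CPM in outer cortex cells, and no UMI in noradrenaline cells, where 3 counts would be 2.30 CPM. Of the 5 family genes tested in cortex against chromaffin cells, 3 were higher in cortex (*Gpx1*, *Gpx4* and *Gpx8*) and 0 lower. *Gpx1* and *Gpx4* are members chosen with their levels known.

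The superoxide dismutase and catalase list holds the members *Sod1*, *Sod2* and *Cat*, chosen with their levels known. All 5 genes of this list were higher in cortex than in chromaffin cells. They include *Sod3*, the extracellular enzyme, with 213 CPM in fasciculata cells, 155 CPM in fibroblast cells and 0.683 CPM in adrenaline cells, and *Ccs*, the copper chaperone of SOD1, with 204 CPM in fasciculata, 151 CPM in inner cortex and 48.6 CPM in adrenaline cells. Of the 6 peroxiredoxins, 3 were higher in cortex. *Prdx3*, the mitochondrial one, had 245 CPM in fasciculata and 27.6 CPM in adrenaline cells. *Prdx2* differed less, with 1184 CPM in inner cortex, 801 CPM in adrenaline and 114 CPM in immune cells.

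In the thioredoxin and glutaredoxin list 4 of 11 genes were higher in cortex and 1 lower. *Txnrd1*, thioredoxin reductase, was highest in inner cortex at 325 CPM and had 63.4 CPM in adrenaline cells. *Glrx5*, needed for iron-sulphur cluster assembly in mitochondria, had 916 CPM and 116 CPM. Of 13 glutathione synthesis and transfer genes tested, 7 were higher in cortex and 1 lower. *Mgst1*, the microsomal glutathione transferase, had 3395 CPM (3360 to 3430) in inner cortex, 1268 CPM in fasciculata, 325 CPM in outer cortex and 5.01 CPM in transitioning cells. *Gstm2* went the other way within the cortex, from 228 CPM in outer to 19.4 CPM in inner cells.

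None of the 5 NRF2 pathway genes tested was 2-fold higher or lower in cortex against chromaffin cells. Their median log2 ratio was 0.49, beside -0.03 over all genes tested, so the count does not show that the list was level. *Hmox1*, haem oxygenase, had 187 CPM in immune and 136 CPM in sustentacular cells and 1.50 CPM in adrenaline cells. *Blvrb*, biliverdin reductase B, had 374 CPM in immune cells. Glutathione peroxidases 1, 3 and 4 are selenoproteins, and *Sephs2*, which makes the selenium donor for them, was highest in inner cortex at 140 CPM and had 13.9 CPM in adrenaline cells. *Selenop*, the secreted selenium carrier, was highest in endothelial cells at 1029 CPM (997 to 1061), with 750 CPM in immune cells and 6.54 CPM in unzoned cortex cells. Of 6 genes of this supply list tested in cortex against chromaffin cells, 1 was higher and 3 lower.

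The oxidant-producing NADPH oxidase genes *Cyba* and *Cybb* peaked in immune cells, the class with the most *Gpx1*, at 1944 CPM and 714 CPM. *Cyba* had 1.54 CPM in noradrenaline cells, and no UMI of *Cybb* was found in adrenaline cells, where 3 counts would be 0.410 CPM. Among glucocorticoid-responsive genes, 1 of 7 tested was higher in cortex than in chromaffin cells and 3 were lower. Between the chromaffin types 0 of 6 passed 2-fold, where 2.47% of all genes were higher and 3.25% lower in adrenaline cells. Their median log2 ratio was 0.50 towards adrenaline cells, beside -0.02 over all genes tested, so the count does not show that the list was level. *Sgk1* was highest in endothelial cells at 509 CPM. *Hsd11b1*, whose enzyme regenerates active glucocorticoid, had 260 CPM in fibroblast cells and at most 6.91 CPM elsewhere. Of the 10 immediate-early and heat shock genes, 3 were lower in cortex than in chromaffin cells, and between chromaffin types *Egr1*, named after its values were seen, was higher and *Atf3* lower in adrenaline cells.

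Genes most alike to each member were sought among 6559 genes with at least 50 CPM in a class, by Pearson r of log2(CPM + 10) over the 14 classes. For *Mt1* the closest was *Mt2* (0.91), then *Tigd2* (0.87) and *Bzw2* (0.87). *Mt2* had *Bdkrb2*, *Tmeff2* and *Tmem59l*, at 0.94 to 0.95, and *Mt3* had *Ppp1r17*, *Gnb3* and *Mapk8ip2*, at 0.997 to 0.998. For *Gpx1* these were *Ctsh*, *B4galt1* and *Wdfy2* (0.94 to 0.95), for *Gpx3* *Fn1*, *Plac8* and *Tmem273* (0.91 to 0.96) and for *Gpx4* *Hadhb*, *Pitrm1* and *Slc25a16* (all 0.94).

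*Sod1* was closest to *Ndufa4*, *Psmb1* and *Zadh2* (0.95 to 0.96), *Sod2* to *Cbr1*, *Mtln* and *Bnip3* (0.97 to 0.98) and *Cat* to *Pole4*, *Tex261* and *Eif4ebp1* (0.95 to 0.96). Among the members, *Gpx4* had an r of 0.79 with *Sod1* and 0.79 with *Sod2*, *Gpx1* of 0.83 with *Cat*, and *Mt3* of -0.90 with *Cat*. The classes share 1 library, and the r values describe 14 points.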

How the data were processed

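Gene expression was measured by droplet-based 3′ single-cell RNA sequencing of 1 pooled library from 10 adrenals of 5 mice. The authors aligned the reads and counted UMIs with Cell Ranger 4.0.0 against mm10, and deposited the raw count of UMIs per gene and barcode. A library from sorted cells was not analysed here.

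Barcodes with 500 to 5000 genes and at most 20% mitochondrial UMIs were kept. Cells were clustered with Seurat 5.3.0 in R 4.3.3 (2000 variable features, 10 principal components, Louvain resolution 0.4). Medulla (chromaffin and sustentacular), cortex, endothelial and immune groups were clustered again. A cluster took a name where at least 3 markers of a type were each found in 50% of its cells (25% for sustentacular and cycling markers). Outer, fasciculata and inner cortex names needed 3 zone markers each in 20%, 50% and 25% of cells, and the adrenaline name *Pnmt* in 50%. A cluster that met the fasciculata threshold was called unzoned where its 10 leading genes held more outer than fasciculata markers. These thresholds were set after the clusters were seen. The members took part in clustering. Doublets were called with Scrublet in Scanpy 1.11.5 (expected rate 8%, 677 cells called) and were not removed.

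UMIs were summed per class and scaled to counts per 1000000 (CPM). Intervals are exact at 95%: Poisson for levels, Clopper-Pearson for shares and conditional binomial for ratios. A gene was compared where either class had at least 10 CPM, and was counted as higher or lower at 2-fold or more of (CPM + 10). Thinned values were drawn at 1000 UMIs per cell, leaving out 526 shallower cells. Foreign RNA was estimated from the UMIs of *Chga* and *Pnmt* outside chromaffin cells and of *Star* and *Cyp11a1* outside cortex cells, times the ratio of each gene to the marker in the source class, with the larger of each pair of values.

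The scripts for ratios and intervals were tested on simulated data. Sequences and starts came from RefSeq (GRCm38.p6) and GENCODE vM21, and all 9 symbols matched. The genes named were the 9 members, the 2 other genes per list with the largest ratio between classes, the 3 genes most alike to each member, and markers. Members and lists were chosen with earlier results of these data known. Alternatives covered clustering, a stricter cell filter (1000 genes or more, mitochondrial share up to 10%), doublets and the mean over cells. They also covered thinning, the pseudocount, the minimum level and the fold.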

Additional observations from a re-analysis of the deposited data

How the results depend on the processing

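The number of the 102 list genes past 2-fold depended on the setting in 4 of 8 comparisons. Between adrenaline and noradrenaline cells it was 6, but 10 with cells thinned to 1000 UMIs, 11 with 1 CPM added and 3 at 3-fold. For endothelial against chromaffin cells 34 became 17 at 3-fold. For outer cortex against fasciculata cells 24 became 8 at resolution 0.2, 7 with the stricter cell filter, 9 at 3-fold and 8 with the unzoned cells counted as fasciculata. For inner cortex against fasciculata cells 5 became 17, 23, 3 and 16 under the same changes and 10 with 1 CPM added. A 3-fold limit cannot raise a count. No unzoned class was found at resolution 0.2, with 1144 fasciculata cells, or with the stricter cell filter, with 509, so these changes are not independent of the unzoned cells' place. The part of each change in the counts was not tested. The other counts stayed within 1.5 times. No member's ratio changed direction while past 2-fold.

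Of 396 calls of members over all comparisons and alternatives, 381 were kept and 15 lost, and 12 were added. Part of this tally is fixed by arithmetic. Dropping the minimum level cannot change a call, with 1 CPM added none can be lost, and at 3-fold none can be added. The members were chosen with these levels known, so the tally is a description and nothing is read from it. *Mt1* and *Mt2* stayed 2-fold or more higher in adrenaline than in noradrenaline cells under every alternative run, with log2 ratios of (CPM + 10) of 2.27 to 2.47 and 2.46 to 2.78 over those that kept 10 CPM as the addition. The alternatives without stress-led clusters and with unzoned cells joined to fasciculata were chosen after seeing the data. No fibroblast class was found at resolution 0.2, with the stricter filter or without called doublets, and no sustentacular class with the stricter filter, so those values could not be given. No paired analysis was possible because there is 1 library. The intervals cover counting error alone: variation between cells, mice, dissections and runs is outside them. Levels resting on 3 UMIs or fewer are limited by depth, which applies to *Mt2* in sustentacular and outer cortex cells, to *Gpx3* in sustentacular, unzoned and fasciculata cells, and to *Mt3* in every class outside the chromaffin ones other than inner cortex and endothelial cells.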

Other observations

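Further lists were counted in immune, fibroblast and sustentacular cells against chromaffin cells. In immune cells 4 of 6 tested NRF2 pathway genes were 2-fold or more higher and 0 lower, with a median log2 ratio of 1.75, beside -0.21 over all genes tested, of which 16.3% were higher and 22.7% lower. They included *Hmox1* and *Blvrb*, whose enzymes break down haem and its product biliverdin. Of 6 oxidant source genes, 4 were higher, all of the NADPH oxidase, and 2 lower, both monoamine oxidases, which act on catecholamines (genes named as groups after their values were seen). In fibroblast cells 5 of 8 genes of the glucocorticoid list were higher (*Nr3c1*, *Tsc22d3*, *Sgk1*, *Klf9* and *Hsd11b1*) and 0 lower. Their list had a median of 1.46 beside 0.16 over all genes tested, of which 20% were higher and 12.6% lower. *Tsc22d3*, *Sgk1* and *Klf9* were also higher in endothelial and in sustentacular cells than in chromaffin cells, and *Tsc22d3* and *Sgk1* in immune cells. In cortex cells *Sgk1* was higher and *Tsc22d3* lower. The fibroblast class carried the endothelial gene *Emcn*, and the part of endothelial cells in its levels was not tested. No response to glucocorticoid was measured.

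In sustentacular cells 4 of 12 tested genes of glutathione synthesis, recycling and transfer were higher and 0 lower, with a median log2 ratio of 0.80 beside -0.08 over all genes tested, of which 14.9% were higher and 16.9% lower. *Gstm2*, a glutathione transferase, had 42.3 CPM in sustentacular and 2.32 CPM in adrenaline cells. Of the 10 immediate-early and heat shock genes 3 were higher in these cells, beside the same 14.9%, and *Fos* stood at 1529 CPM in sustentacular, 1394 CPM in noradrenaline and 1111 CPM in adrenaline cells. Cells were dissociated with enzymes at 37 °C, and the part of dissociation in these levels was not tested.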
